A study of Mus musculus with 22 samples.

Results

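Basophils and mast cells were sought in droplet single-cell RNA profiles of mice carrying the Prom1-CreERT2;Rosa26ZSG alleles, and 236 of the 95843 barcodes that passed the filters were found. A barcode was taken as a member when it held at least 1 unique molecular identifier (UMI, one captured transcript molecule) of at least 2 of 8 genes, Mcpt8, Cpa3, Cyp11a1, Ms4a2, Fcer1a, Cd200r3, Tpsb2 and Cma1, and no UMI of the plasmacytoid dendritic, B and T cell genes Siglech, Cd79a and Cd3e. Passing barcodes had at least 200 detected genes and at most 25% mitochondrial UMIs, out of 179929 barcodes in all. Of the members, 127 held Mcpt8 and are called Mcpt8-positive, 7 held Tpsb2 or Cma1, and 102 held none of these 3 genes. No barcode held both Mcpt8 and a UMI of Tpsb2 or Cma1. The Mcpt8-positive and the Mcpt8-negative barcodes without Tpsb2 and Cma1 are together called basophil-like (229 barcodes).

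Basophils are short-lived blood granulocytes and mast cells are long-lived residents of tissue. Both carry the high-affinity IgE receptor, store histamine and proteases in granules and release cytokines of type 2 immunity when the receptor is crosslinked, and both depend on the transcription factor GATA2. In the mouse the granule proteases set them apart, since basophils make the protease encoded by Mcpt8 and connective tissue mast cells the chymases and tryptases encoded by Cma1, Mcpt4 and Tpsb2.

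The study asked what loss of the sodium leak channel NALCN does to cells in tissues and to cells shed into blood. All mice carried a tamoxifen-inducible Cre recombinase driven by the Prom1 promoter and a ZsGreen (ZSG) reporter of recombination, alone (Nalcn-wt) or with Nalcn-het or Nalcn-null alleles, so Nalcn could be lost only in Prom1-expressing cells and their progeny. Tissue libraries pooled dissociated kidney, liver, lung and stomach with epididymis (labelled male) or uterus (labelled female). There were 5 Nalcn-wt tissue libraries (571 to 654 days of age), 2 Nalcn-het (551 days) and 2 Nalcn-null (552 and 611 days), numbered below as in the labels. Of these, tissue wt 4, wt 5 and null 3 were labelled female and the others male. Blood was represented by 10 libraries of ZSG+ cells sorted from animals without tumours (ntCZC, 2 Nalcn-wt, 4 Nalcn-het and 4 Nalcn-null, 551 to 649 days of age) and by 1 library of unsorted mononuclear cells (PBMC) from a Nalcn-wt male of 120 days. Among the ntCZC libraries, het 3, null 1, null 3 and null 4 were labelled female and the others male. In 2 further tissue libraries the title and the strain gave different genotypes, and these entered no comparison between groups. They were labelled male at 610 days (unassigned 1) and female at 647 days (unassigned 2), and their 34 members count in the pooled levels below. The labels do not say which libraries came from separate animals, so p-values measure only the spread between these libraries.

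Total UMIs ranged from 8571019 to 139793927 in the tissue libraries with a group and from 161541 to 2600526 in ntCZC, and the PBMC library held 1422144. The library tissue wt 5 held 287 passing barcodes, the fewest of any tissue library. The library tissue null 3 was labelled female with uterus, yet held 31.2 counts per 1000000 UMIs (CPM) of Y-linked genes beside 1347 CPM of Xist, and its barcodes outside the members held the epididymal genes Spag11b at 6242 CPM and Gpx5 at 7805 CPM. It is called the library labelled null 3 below. Libraries shared 3900 barcode sequences, including 15 of the members' barcodes, but no member barcode was a member in 2 libraries. Nalcn itself had 54 UMIs in 52 of the 95843 passing barcodes, none in any blood library and 0 in the members, so the deletion could not be checked in these cells.

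The promoters of 5 genes of the rule are shown because the rule turned on them, and those of Prss34 and Mcpt4 because they encode granule proteases outside the rule. Binding sites for GATA factors are known at such genes. Each sequence is the 250 bases before the start site on the coding strand, from RefSeq on GRCm38.p6, 5′ to 3′, and capitals mark AGATAA or its reverse complement TTATCT.
Mcpt8: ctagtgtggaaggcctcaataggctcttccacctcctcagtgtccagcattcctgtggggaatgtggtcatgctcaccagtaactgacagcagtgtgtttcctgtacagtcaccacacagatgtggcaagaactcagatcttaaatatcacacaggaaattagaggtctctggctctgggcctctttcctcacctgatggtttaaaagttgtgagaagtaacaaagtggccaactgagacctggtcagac
Cpa3: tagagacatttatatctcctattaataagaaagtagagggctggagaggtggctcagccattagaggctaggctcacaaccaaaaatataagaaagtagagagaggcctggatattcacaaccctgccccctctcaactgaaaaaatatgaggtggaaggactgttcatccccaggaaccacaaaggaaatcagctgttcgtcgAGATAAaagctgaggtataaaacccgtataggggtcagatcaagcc
Ms4a2: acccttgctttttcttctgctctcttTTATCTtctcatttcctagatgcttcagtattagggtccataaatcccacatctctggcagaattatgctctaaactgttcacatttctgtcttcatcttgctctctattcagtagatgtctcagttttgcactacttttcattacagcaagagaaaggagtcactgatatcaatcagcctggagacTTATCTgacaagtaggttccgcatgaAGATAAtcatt
Cd200r3: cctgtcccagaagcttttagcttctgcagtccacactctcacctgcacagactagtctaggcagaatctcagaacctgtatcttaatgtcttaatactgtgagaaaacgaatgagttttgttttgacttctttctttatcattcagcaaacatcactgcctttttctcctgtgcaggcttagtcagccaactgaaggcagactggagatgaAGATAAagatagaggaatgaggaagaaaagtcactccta
Prss34: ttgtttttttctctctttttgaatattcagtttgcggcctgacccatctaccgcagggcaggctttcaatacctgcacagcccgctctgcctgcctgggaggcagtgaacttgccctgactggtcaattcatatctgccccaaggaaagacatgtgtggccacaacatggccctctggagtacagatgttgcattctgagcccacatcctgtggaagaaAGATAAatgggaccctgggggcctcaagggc
Mcpt4: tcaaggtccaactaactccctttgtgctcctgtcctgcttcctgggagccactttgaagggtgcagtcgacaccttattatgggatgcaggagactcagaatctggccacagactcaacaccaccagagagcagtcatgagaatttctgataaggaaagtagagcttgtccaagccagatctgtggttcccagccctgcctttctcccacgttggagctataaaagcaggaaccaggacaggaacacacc
Cma1: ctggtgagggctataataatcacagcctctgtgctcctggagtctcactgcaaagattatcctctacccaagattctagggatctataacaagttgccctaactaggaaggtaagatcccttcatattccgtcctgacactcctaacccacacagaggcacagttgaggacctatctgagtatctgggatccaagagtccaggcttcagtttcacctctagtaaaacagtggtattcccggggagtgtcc
The windows are chr14:56085198-56085447 on the minus strand for Mcpt8, chr3:20242182-20242431 minus for Cpa3, chr19:11623720-11623969 minus for Ms4a2, chr16:44943428-44943677 plus for Cd200r3, chr17:25298144-25298393 plus for Prss34, chr14:56062311-56062560 minus for Mcpt4 and chr14:55944676-55944925 minus for Cma1. The motif was present in 9.99% of all 32851 promoter windows of the same length (3281 windows). It lay in the windows of Cpa3, Cd200r3 and Prss34 at 46, 39 and 31 bases before the start and in that of Ms4a2 at 3 places (224, 37 and 11 bases before). Fcer1a also held it, at 92 bases before the start. No match was found in the windows of Mcpt8, Cyp11a1, Cma1, Mcpt4, Gzmb, Gzmc, Hdc or Gata2. Of 14 genes looked up, 13 had an entry in the sequence table, and Tpsb2 is named only. A match is a description of letters and not evidence of binding. Mcpt8, Mcpt4, Cma1 and Gzmb lie on 1 stretch of chromosome 14 (GENCODE vM21, mm10), from Cma1 at chr14:55941451-55944675 to Gzmb at chr14:56258838-56262260, a known cluster of granule protease genes.

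The members were described first by how they met the rule, which is not a finding. Exactly 2 of the 8 genes were present in 85 members, 3 in 59, 4 in 47, 5 in 28 and 6 in 17. Just outside the threshold were 792 barcodes with exactly 1 of the genes and none of the 3 excluded ones. In 249 of these the gene was Cd200r3 and in 234 Cma1, but in only 27 Mcpt8. Their content differed from that of the members. The histidine decarboxylase gene Hdc, which the rule did not use and whose enzyme makes histamine, was found in 15.8% of the 792 and in 211 of the 229 basophil-like barcodes (92.1%). The rule was met, before the exclusion, by 0.137% of Cd79a-positive and 0.159% of Cd3e-positive barcodes. Among barcodes without the 3 excluded genes it was met by 0.314%, and by 0.131% of those that also held the endothelial gene Cdh5. The exclusion removed 30 barcodes with 2 or more of the 8 genes, of which 25 held Hdc. Members had a median of 1456.5 UMIs (502 to 25163). Scrublet, which scores barcodes against simulated doublets, called 65 of the 213 members in tissue libraries as doublets, which is 31 of the Mcpt8-positive, 30 of the Mcpt8-negative and 4 of the Tpsb2- or Cma1-positive members. The share it called in each library was fixed by the assumed doublet rate, at 16.2% over all passing barcodes of the tissue libraries, so the share among members is relative to that setting.

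Proteases that the rule did not use were looked up next. In the basophil-like barcodes the mast cell protease genes Mcpt1, Mcpt2, Mcpt4, Mcpt9, Cma2, Tpsab1 and Tpsg1 had no UMI. This is no independent check of identity, since barcodes with Tpsb2 or Cma1 had been set apart. All 6 members with Mcpt4 held Cma1. Mcpt1, Mcpt2, Mcpt9 and Tpsg1 had no UMI in the Tpsb2- or Cma1-positive barcodes either. At 3 counts, a count of 0 allows a level of up to 9.37 CPM in the Mcpt8-positive and 13.7 CPM in the Mcpt8-negative pool. All 3 natural killer cell genes (Ncr1, Klrb1c and Gzma) were also at 0 in all 229. Of 5 eosinophil genes, Prg2, Epx and Ear6 were at 0, while Ear1 stood at 118.7 CPM (64 UMIs in 11 barcodes of 6 libraries, 40 of them in tissue wt 2) and Siglecf at 24.1 CPM (9 barcodes). The 5 summed to 143 CPM against 169 CPM in the other barcodes. Some markers of other cells lay below the other barcodes. The 4 haemoglobin genes summed to 964 CPM against 14463 CPM and 5 macrophage genes to 233.7 CPM against 906 CPM. Both sums leaned on 1 library. Tissue null 2 held 7344 CPM of the haemoglobin genes, against at most 1328 CPM in any other library. Tissue wt 2 held 646 CPM of the macrophage genes, against at most 217 CPM in any other. Other sums lay at or above them, with 497 CPM of 4 epithelial genes against 413 CPM and 506 CPM of 3 endothelial genes against 491 CPM. The 5 genes of group 2 innate lymphoid cells summed to 415 against 268 CPM and 4 platelet genes to 178 against 112 CPM. By gene, 1 of the 4 epithelial, 2 of the 3 endothelial, 3 of the 5 lymphoid and 2 of the 4 platelet genes stood above. In ntCZC and PBMC every epithelial UMI was of Cdh1, and tissue wt 2 held most UMIs of Krt8 and Krt18. Sums per tissue library ran from 0 to 877 CPM (epithelial) and 0 to 1188 CPM (endothelial). Neutrophil genes were uneven, with 45.7 to 8070 CPM in tissue libraries and 15920 CPM in ntCZC wt 1. So were monocyte genes, with 462 to 6520 CPM in tissue and 8878 CPM in ntCZC wt 1. Whether these came from the cells themselves, from free RNA or from a second cell in the droplet was not tested.

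Of 10 listed amine and granule matrix genes, 9 were detected and 6 stood above the other barcodes. Hdc stood at 4037 CPM in Mcpt8-positive and 3179 CPM in Mcpt8-negative barcodes, against 85.2 CPM in all other passing barcodes, a pooled ratio of 43.3 over both kinds. Hdc was found in 7.41% of Cd79a-positive B cell barcodes, which do not make histamine and had a median of 1918 UMIs. With every barcode thinned to 500 UMIs the shares were 76.9% in basophil-like and 2.50% in Cd79a-positive barcodes. Slc18a2, the vesicular transporter that loads amines into granules, reached 328 CPM (70 barcodes, 133 times the other barcodes). Srgn, the core protein of the granule proteoglycan, reached 3628 CPM and was 4.42 times as high as in the other barcodes. Tph1, which makes serotonin in mast cells, had no UMI. Counts of 3′ ends do not grow with transcript length, but other differences in capture between genes were not checked.

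Among the 3 chains of the IgE receptor, Fcer1a and Ms4a2 encode the alpha and beta chains and were in the rule. Fcer1a stood at 304 CPM and Ms4a2 at 371 CPM over the basophil-like pool. Fcer1g, the signalling gamma chain shared with other Fc receptors, was not in the rule and stood at 1256 CPM, 1.51 times the other barcodes. Of 19 genes of the receptor and its signalling, all were detected and 16 stood above the other barcodes, or 14 of 17 without the rule genes Fcer1a and Ms4a2. Over all 13305 genes detected in these barcodes 38.3% did so. This and the following comparisons with the other barcodes describe the pools and were not tested, since the cells were picked by related genes.

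Cytokine and chemokine genes summed to 30328 CPM in the basophil-like barcodes and 2602 CPM in the others. Of 22 listed genes 18 were detected and 15 stood above the other barcodes. The chemokine genes Ccl4 and Ccl3 were present in 193 and 195 of the 229 barcodes, at 11771 and 6038 CPM, 39.8 and 35.3 times the other barcodes. After thinning to 500 UMIs, Ccl4 was found in 75.5% of basophil-like and 4.31% of Cd79a-positive barcodes. Il6, which encodes a cytokine of acute inflammation, stood at 1257 CPM (131 barcodes, 70.5-fold), and Osm, a cytokine of the same family, at 1267 CPM (136 barcodes, 14.6-fold). Il4, the hallmark type 2 cytokine of basophils, was found in 44 barcodes at 121 CPM against 0.474 CPM in the other barcodes. Il13, its neighbour in function, was found in 20 barcodes at 72.3 CPM. The growth factor genes Csf1 and Hgf stood at 512 and 349 CPM, 21.0 and 49.7 times the other barcodes. Il3, Il5, Il9 and Csf2 had no UMI. Il1b stood at 3824 CPM (8.62-fold), and was found in 15.9% of Cd79a-positive barcodes.

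Among transcription factors, Cebpb stood above Gata2 in every tissue library with a group, at 1033 to 6233 CPM against 551 to 2381 CPM. In the PBMC library (516 against 2066 CPM) and unassigned 1 (2221 against 2379 CPM) it stood below Gata2. Gata2 was found in 170 barcodes at 1016 CPM, 30.4 times the other barcodes. Its sister gene Gata1 was found in 3 barcodes. Cebpa, a factor of granulocyte fate, stood at 200 CPM (3.67-fold). Irf8, which directs monocytes and dendritic cells, stood below the other barcodes at 27.8 CPM (0.199-fold). Of 16 listed factors, all were detected and 11 stood above the other barcodes.

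Receptors for growth and alarm cytokines were present. Csf2rb and Csf2rb2, the signalling chains for interleukin receptors on which basophils depend, stood at 968 and 486 CPM (6.02- and 14.4-fold). Il18rap, a chain of the interleukin-18 receptor, stood at 295 CPM (28.7-fold) and Il1rl1, which binds the alarm cytokine encoded by Il33, at 102 CPM (20.7-fold). Kit, the stem cell factor receptor of mast cells, was at 31.5 CPM in the basophil-like pool, close to the 26.1 CPM of the other barcodes. Of 14 receptors 9 stood above the other barcodes, and of 17 chemoattractant, lipid and complement receptors 12 did, among them the chemokine receptor genes Ccr3 (31.5 CPM, 61.1-fold), Cxcr2 (184 CPM, 11.9-fold) and Cxcr4 (647 CPM, 3.60-fold). Lilrb4a, an inhibitory receptor, was at 228 CPM (9.69-fold), as 1 of 7 paired and inhibitory receptors of 14 above the other barcodes, leaving out the rule gene Cd200r3. Alox5ap, which leukotriene synthesis needs, was at 1078 CPM (4.54-fold) and was 1 of 5 eicosanoid genes of 9 that stood above. Of 15 integrin and adhesion genes 10 stood above, including Itga2b (121 CPM, 16.6-fold). All 5 class II presentation genes stood below, with Cd74 at 1167 CPM (0.348-fold). Ifitm1, a membrane protein of the interferon-induced family, was on no list and was found in 211 barcodes at 3774 CPM (39.5-fold).

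**Figure D1:**
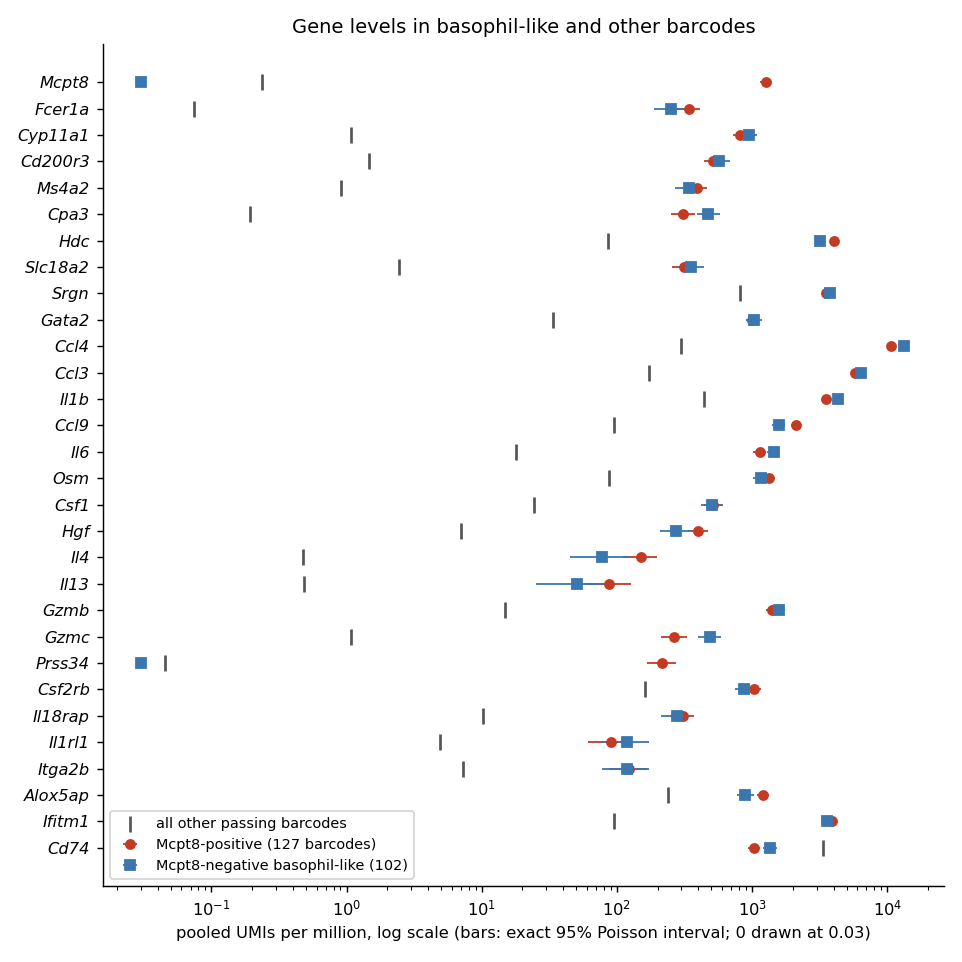
Pooled levels of 30 genes in CPM on a log axis, in 127 Mcpt8-positive barcodes (circles), 102 Mcpt8-negative basophil-like barcodes (squares) and all other passing barcodes (ticks), with exact 95% Poisson intervals that cover counting error only. Ccl4 and Ccl3 stood highest at 11771 and 6038 CPM over both kinds, Cd74 lay below its tick in both, and Mcpt8 and Prss34 were at 0 in the Mcpt8-negative kind.

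Mcpt8-negative and Mcpt8-positive barcodes had medians of 1405.5 and 1584 UMIs. Of the 15 genes with the highest pooled ratio to the other barcodes in each kind, 11 were shared. Of these, 5 are genes of the rule that chose both kinds, and the other 6 were Csrp3, Gzmb, Gzmc, Il4, Il6 and Slc18a2. No gene was tested between the kinds. Prss34, another basophil protease, was found in 16 of the 229 basophil-like barcodes, all of them Mcpt8-positive, and 33 of its UMIs were in 1 barcode of the PBMC library. Csrp3, better known as a muscle protein gene, was found in 56 basophil-like barcodes at 193 CPM, against 0.219 CPM in the other barcodes (879-fold). Gzmb, a protease of cytotoxic lymphocytes, was found in 106 barcodes, at 1399 CPM in Mcpt8-positive and 1580 CPM in Mcpt8-negative ones, 98.7 times the other barcodes over both. Gzmc, its neighbour on the chromosome, was found in 26 barcodes, 24 of which also held Gzmb. Thinned to 500 UMIs, 34.1% of basophil-like and 0.304% of Cd79a-positive barcodes held Gzmb.

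The 7 barcodes with Tpsb2 or Cma1 were not alike. One, from tissue wt 2, held 25163 UMIs with 337 of the macrophage lectin gene Lgals3, but 1 UMI each of Cma1 and Cpa3, no Mcpt4 and no Hdc, and Scrublet called it a doublet. Mast cell proteases made up 0.00795% of its UMIs, and it is given by the rule only. The other 6 held Cma1, Mcpt4 and Cpa3 in every barcode and Tpsb2 in 5. In tissue het 1 there were 3, with proteases at 1.88%, 1.16% and 8.46% of UMIs, and Scrublet called all 3 doublets. In tissue het 2 there was 1 with 6.65%, in tissue wt 3 there was 1 with 5.10%, and in ntCZC het 4 there was 1 with 13.7% of its 531 UMIs, which also held 3 UMIs of Prss34. Pooled over these 6 (6161 UMIs), Mcpt4 stood at 21263 CPM, Cma1 at 18341 CPM, Cpa3 at 9252 CPM and Tpsb2 at 8116 CPM. Including the barcode from tissue wt 2 lowered Mcpt4 to 4182 CPM. Kit was found in 3 of the 6 (4 UMIs), Hdc in 3 and the receptor gene Mrgprx2 in 3. Mrgprb2, a receptor gene listed for mast cells, had no UMI. Neither Mcpt8 nor the mucosal proteases Mcpt1 and Mcpt2 had a UMI. With 6161 UMIs in all, no gene was tested between mast and basophil-like barcodes.

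**Figure D2:**
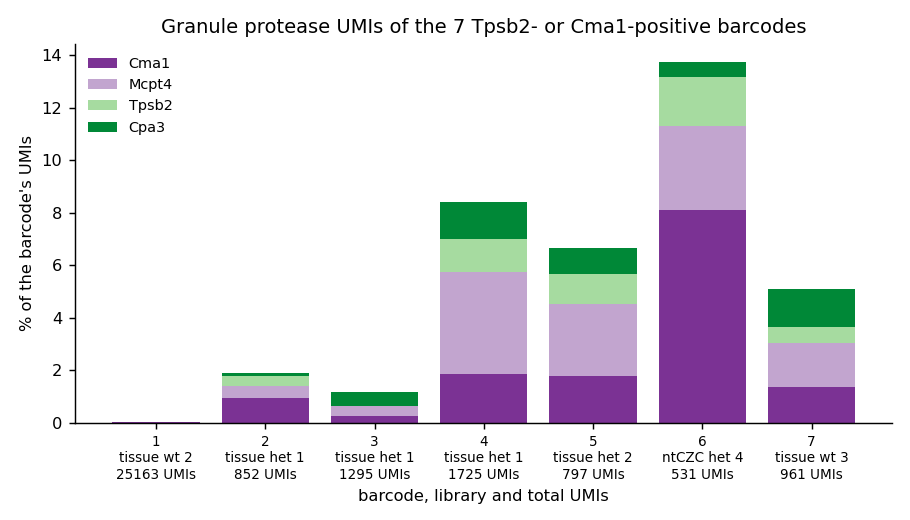
Share of each barcode's UMIs taken by Cma1, Mcpt4, Tpsb2 and Cpa3 (stacked bars, %) in the 7 barcodes with Tpsb2 or Cma1, with library and total UMIs under each bar. The barcode from tissue wt 2 had 0.00795%, and the one from ntCZC het 4 had the tallest bar at 13.7%.

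Members were a small part of every library, and their share was compared between genotypes over tissue libraries. In Nalcn-wt tissue the shares of passing barcodes were 0.219%, 0.175%, 0.125%, 0.0765% and 0.348% in libraries 1 to 5. In Nalcn-het they were 0.493% and 0.445%, and in Nalcn-null 0.402% in library 2 and 0.278% in the library labelled null 3. Both Nalcn-het libraries lay above all 5 Nalcn-wt libraries, and the Nalcn-null libraries overlapped them only through tissue wt 5, whose share rests on 1 member of 287 barcodes. The tests of shares took account of neither age nor sex. Both Nalcn-het libraries were labelled male at 551 days, younger than every Nalcn-wt library (571 to 654 days). Genotype and age therefore cannot be told apart in that comparison. Means were 0.189% ± 0.104 (SD, n = 5) for Nalcn-wt, 0.469% ± 0.0345 (n = 2) for Nalcn-het and 0.340% ± 0.0878 (n = 2) for Nalcn-null. The difference of Nalcn-het and Nalcn-null together from Nalcn-wt was 0.216 percentage points (exact two-sided permutation p = 0.0317, adjusted 0.119 over 5 comparisons). For Nalcn-het alone it was 0.280 points (exact p = 0.0476, the smallest that 21 splits allow, adjusted 0.119) and for Nalcn-null alone 0.151 points (exact p = 0.143, adjusted 0.238). No genotype difference passed after adjustment. These 5 comparisons of all members were added after the counts were seen. The joint difference fell to 0.159 points per Ptprc-positive (leukocyte) barcode (exact p = 0.127), to 0.125 points with barcodes thinned to 1000 UMIs (exact p = 0.230), to 0.121 points at 500 or more genes (exact p = 0.230) and to 0.0863 points with 3 of the 8 genes required (exact p = 0.373), and Nalcn-null alone stood at 0.0507, -0.0151, 0.00969 and -0.0369 points in these settings. Tissue wt 5 held 0.465%, 0.398%, 0.386% and 0.348% there, each from 1 barcode, against at most 0.248% in any other Nalcn-wt library. Without the library labelled null 3 the joint difference was 0.258 points (exact p = 0.0179) and without tissue wt 5 it was 0.255 points (exact p = 0.0286), while leaving out any 1 of the other 7 libraries gave 0.186 to 0.223 points (exact p of 0.0536 to 0.0714). Depth and doublet calls also moved with genotype, as members had a median of 2590 UMIs in Nalcn-wt, 1491 in Nalcn-het and 952 in Nalcn-null tissue, and Scrublet called 47.6%, 16.4% and 19.7% of them doublets (11 of 13 in tissue wt 1, whose share was 0.0367% without them). Without called doublets the joint difference was 0.249 points (exact p = 0.0317).

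Mcpt8-positive barcodes alone were compared in the same way. Their share was 0.116% ± 0.134 (SD, n = 5) in Nalcn-wt, 0.317% ± 0.0988 (n = 2) in Nalcn-het and 0.168% ± 0.0869 (n = 2) in Nalcn-null tissue. The groups overlapped, and neither Nalcn-het (exact permutation p = 0.143, adjusted 0.536 over 10 comparisons) nor Nalcn-null (exact p = 0.762, adjusted 0.939) nor both together (exact p = 0.175, adjusted 0.536) passed against Nalcn-wt. Tissue wt 5, with its single Mcpt8-positive barcode, had the highest Nalcn-wt share. Leaving it out gave 0.185 points for both together (exact p = 0.0286, unadjusted). The Nalcn-null difference of 0.0523 points turned to -0.0472 at 500 or more genes, -0.0411 with 3 of the 8 genes, -0.0132 per Ptprc-positive barcode, -0.0696 after thinning to 1000 UMIs and -0.00908 without tissue null 2. All but the last kept tissue wt 5, at 0.386%, 0.348%, 0.465% and 0.398% in that order, each from 1 barcode. No other Nalcn-wt library exceeded 0.147% in these settings. Barcodes with Tpsb2 or Cma1 had a share of 0.0324% ± 0.0108 (n = 2) in Nalcn-het and 0.00467% ± 0.00774 (n = 5) in Nalcn-wt (exact p = 0.0476, adjusted 0.476), with 4 barcodes against 2. Of these, 3 of the 4 and 1 of the 2 were called doublets, the latter being the barcode from tissue wt 2 that is given by the rule only. The difference of 0.0277 points was 0.00923 without called doublets (exact p = 0.762), 0.00613 at 500 or more genes (exact p = 0.286) and -0.00869 per Ptprc-positive barcode (exact p = 0.762). None was found in Nalcn-null tissue.

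Among the basophil-like barcodes of tissue, Mcpt8 was found in 25 of 61 in Nalcn-wt (41.0%), 39 of 51 in Nalcn-het (76.5%) and 30 of 61 in Nalcn-null (49.2%). By library the shares were 46.2%, 41.9%, 33.3%, 3 of 10 barcodes and 1 of 1 in Nalcn-wt, 85.3% and 58.8% in Nalcn-het, and 57.1% and 38.5% in Nalcn-null. Apart from tissue wt 5, the Nalcn-het libraries lay above the Nalcn-wt libraries and the Nalcn-null libraries overlapped them. Summed Mcpt8 in the libraries with at least 10 such barcodes was 476, 139 and 183 CPM in Nalcn-wt, 1390 and 2202 CPM in Nalcn-het and 1829 and 383 CPM in Nalcn-null. Mcpt8 helped choose the barcodes, so these values stand as a description.

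Shares did not differ detectably between tissue with uterus and with epididymis or between blood and tissue. Tissue with uterus had a mean of 0.234% (n = 3) and tissue with epididymis 0.310% (n = 6, exact permutation p = 0.536), though the library labelled null 3 was counted with uterus as labelled. In ntCZC the 14 members came from 3 of 10 libraries, 8 from ntCZC wt 1 (1.63%), 4 from ntCZC het 4 (0.692%) and 2 from ntCZC null 2 (0.704%). The other 7 libraries held 0 members, which allows a share of up to 1.25% to 27.3%, depending on the library, at 3 counts. The ntCZC mean of 0.303% ± 0.549 (n = 10) and the tissue mean of 0.285% ± 0.147 (n = 9) differed by less than their spread (0.0179 points, permutation p = 0.945). The sign rested on ntCZC wt 1, without which the difference was -0.130 points, and per Ptprc-positive barcode it was -0.0912 points. The PBMC library had 9 members of 679 barcodes (1.33%, exact 95% interval 0.608 to 2.50%). A sort for ZSG+ cells preceded the ntCZC libraries, so these shares are of sorted cells.

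**Figure D3:**
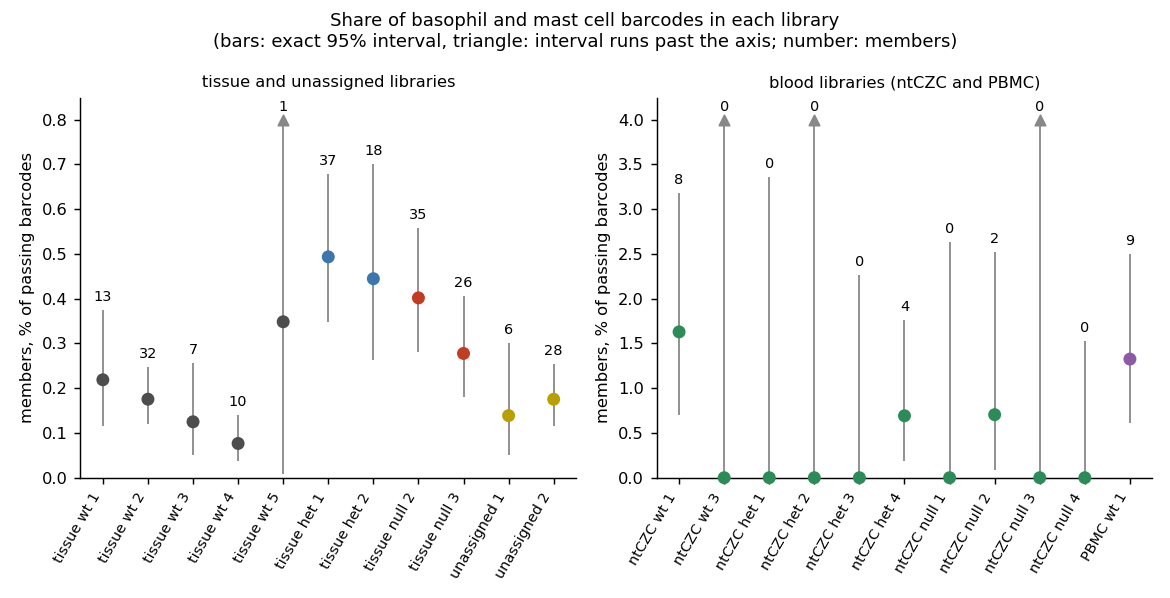
Members as a percentage of passing barcodes in each of 22 libraries, tissue and unassigned on the left and blood on the right, with exact 95% intervals (counting error only) and the number of members above each point. The 2 Nalcn-het libraries, at 0.445% and 0.493%, lie above the Nalcn-wt libraries, and 7 of the 10 ntCZC libraries lie at 0.

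Gene levels were compared between genotypes over summed basophil-like barcodes, because too few libraries held 10 Mcpt8-positive barcodes. In 3 Nalcn-wt, 2 Nalcn-het and 2 Nalcn-null libraries with at least 10 barcodes, 736 genes passed the filter on low counts. Against Nalcn-wt, 3 genes (0.408%) passed in Nalcn-null and all were higher, namely Gpx5 (log2 difference 8.91 ± 0.91 SE, edgeR adjusted p = 0.00323), Spag11b (8.06 ± 0.75, adjusted p = 0.00323) and Defb20 (8.54 ± 1.01, adjusted p = 0.00673). All 3 are genes of epididymal epithelium. They had 2, 3 and 1 UMIs in the Nalcn-wt pool, so the fitted values are loosely bounded. By library, tissue null 2 held 6076 CPM of Gpx5, 4159 CPM of Spag11b and 2536.5 CPM of Defb20, and the library labelled null 3 held 383, 409 and 511 CPM. Sex was a term of the fit, and the library labelled null 3 entered it as female, as labelled, although it held Y-linked and epididymal transcripts. Without that library, or without the sex term, 4 genes passed. Without tissue null 2, which leaves 1 Nalcn-null library, no gene passed (adjusted p of 1.00 for the 3 genes), though the fitted log2 differences were 7.67, 7.76 and 8.08. None passed in Mcpt8-positive barcodes alone (8 libraries with at least 2, 329 genes, 12 with an unadjusted p below 0.05). These barcodes still held the transcripts. Over all libraries, Gpx5 stood at 671 CPM in 12 of the 127 Mcpt8-positive barcodes, and Spag11b at 475 CPM in 13. Without Scrublet doublets, over 8 libraries with at least 2 barcodes left, the same 3 genes passed. The pooled ratios, with exact 95% counting intervals, were 332 (90.9 to 2761) for Gpx5, 157 (52.9 to 771) for Spag11b and 319 (56.0 to 12709) for Defb20. The same genes were high in the other barcodes of these libraries. Means of Gpx5, Spag11b and Defb20 were 8853, 6230 and 6298 CPM in Nalcn-null against 523, 416 and 341 CPM in Nalcn-wt. In tissue het 1 and het 2 the other barcodes held Gpx5 at 3062 and 8192 CPM and Spag11b at 2917 and 5165 CPM. Their basophil-like barcodes held only 89.7 and 0 CPM of Gpx5 and 44.8 and 44.9 CPM of Spag11b. The Nalcn-wt libraries included tissue wt 4, labelled female with uterus, whose other barcodes held 0, 6.30 and 0 CPM of these genes. Basophil-like barcodes of tissue null 2 also had the highest haemoglobin sum of any library, 7344 CPM. The part of free RNA in the result was not tested. With Nalcn-het, 0 genes (0%) passed, 33 had an unadjusted p below 0.05 and DESeq2 called 1, while 1 passed without Scrublet doublets over the same 8 libraries and 28 without tissue wt 1. No member of the lists of proteases, receptors, cytokines or transcription factors passed in either comparison with all 7 libraries and all basophil-like barcodes.

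Blood and tissue were then compared in basophil-like barcodes of 3 ntCZC libraries (13 barcodes) and 8 tissue libraries (172 barcodes) with at least 2 each. Of 621 genes, 57 (9.18%) passed, 12 higher in ntCZC (1.93%) and 45 lower (7.25%). The number was 33 without ntCZC null 2 and 123 with no filter on low counts. With a block for label numbers shared by ntCZC and tissue (wt 1 and null 2 only), no gene passed. In Mcpt8-positive barcodes alone (102 in the same 11 libraries), 47 of 307 genes passed, of which 38 were among the 57. Those lower included 11 mitochondrial and 8 ribosomal protein genes, the heat shock genes Hspa1a and Hspa1b and the immediate early genes Nr4a1, Fosb and Dusp1. Those higher included Ier2, Cd69 and Fcer1g. Tissue cells had been dissociated with enzymes and blood cells sorted, so tissue of origin, sort and handling cannot be told apart.

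Gzmb was at 0, 761 and 0 CPM in ntCZC wt 1, het 4 and null 2, and at 1064 to 3909 CPM (median 1373) in the 8 tissue libraries. The ranges did not overlap, which held for 20% of all 621 genes tested. The log2 difference was -3.68 ± 0.95 (edgeR adjusted p = 0.0294). All ntCZC UMIs of Gzmb came from 1 barcode of ntCZC het 4, so without that library no fold can be given. It did not pass without ntCZC wt 1 (-2.69, adjusted p = 0.0730) or ntCZC null 2 (-3.19, adjusted p = 0.132), or in Mcpt8-positive barcodes alone (-3.09, adjusted p = 0.0736). Cxcr4, the receptor that holds leukocytes in marrow and tissue, was at 60.2, 326 and 0 CPM in ntCZC and at 387 to 1629 CPM (median 669) in tissue (log2 -3.13 ± 0.74, adjusted p = 0.0189), and did not pass without ntCZC wt 1 (adjusted p = 0.100) or ntCZC null 2 (adjusted p = 0.0951) or in Mcpt8-positive barcodes alone (adjusted p = 0.0968). Ptgs2, the inducible cyclooxygenase gene of prostaglandin synthesis, had 1 UMI in ntCZC and lay between 269 and 1103 CPM in tissue (median 509, log2 -5.07 ± 0.84, adjusted p = 0.00159). Its pooled level was 26.9 times as high in tissue (exact 95% counting interval 4.79 to 1069). For Cxcr4 and Ptgs2, too, no ntCZC library reached the lowest tissue library. Il1b was at 1625, 2609 and 212 CPM in ntCZC against 2678 to 9623 CPM (median 4298) in tissue (log2 -2.10 ± 0.57, adjusted p = 0.0362), and did not pass without ntCZC wt 1 (adjusted p = 0.0810), ntCZC null 2 (0.110), tissue wt 1 (0.0576) or tissue wt 3 (0.0525), or in Mcpt8-positive barcodes alone (0.0968). Nr4a1, an immediate early gene of receptor stimulation, was at 30.1, 0 and 0 CPM against 128 to 1052 CPM (median 380.5) in tissue (log2 -5.02 ± 0.86, adjusted p = 0.00208), and also had 1 UMI in ntCZC (pooled ratio 25.5, interval 4.52 to 1010). Ptgs2 and Nr4a1 passed with any 1 of the 11 libraries left out and in Mcpt8-positive barcodes alone (adjusted p = 0.00364 and 0.0115).

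In the opposite direction, Fcer1g was at 3009, 3696 and 2434 CPM in ntCZC and at 646 to 1662 CPM (median 865) in tissue (log2 1.14 ± 0.29, adjusted p = 0.0294). Fcer1g RNA thus had a higher level in every ntCZC library than in any tissue library. Ranges did not overlap for 20% of all genes tested. Fcer1g did not pass without ntCZC wt 1 (adjusted p = 0.0810) or ntCZC het 4 (adjusted p = 0.129) or with no filter on low counts (adjusted p = 0.705). Cd69, an early activation marker, was at 722, 1413 and 5926 CPM in ntCZC against 183 to 904 CPM (median 402) in tissue, and these ranges overlapped (log2 2.23 ± 0.62, adjusted p = 0.0383). Ier2 was at 722, 761 and 10582 CPM against 45.7 to 684 CPM (median 324) in tissue (log2 2.88 ± 0.76, adjusted p = 0.0314). For both genes the highest value came from ntCZC null 2, which held 2 barcodes, and without that library the log2 difference was 0.88 for Cd69 (adjusted p = 0.431) and 0.50 for Ier2 (adjusted p = 0.696).

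Counted by list and leaving out the genes of the rule, Gzmb was the only protease tested (lower), and 1 of 3 tested IgE receptor genes passed (Fcer1g, higher), 1 of 10 cytokine genes (Il1b, lower), 1 of 4 cytokine receptors (Csf2rb2, lower), 1 of 2 chemoattractant receptors (Cxcr4, lower), 1 of 2 eicosanoid genes (Ptgs2, lower), 1 of 7 adhesion genes (Cd69, higher) and 6 of 12 immediate early and heat shock genes (Ier2 higher, and Nr4a1, Fosb, Dusp1, Hspa1a and Hspa1b lower). Over all genes the share was 9.18%. The medians of the log2 differences for all but the protease list were 1.14, -0.16, -1.16, -1.60, -2.08, 0.29 and -2.07 in that order, against -0.06 over all 621 genes. None of 7 transcription factors, 5 amine and granule genes or 2 class II genes passed, nor did Lilrb4a, the only paired receptor tested. Hdc was at 1595, 3696 and 1481 CPM in ntCZC and at 2153 to 9071 CPM (median 3329) in tissue (log2 -1.41 ± 0.44, adjusted p = 0.0628), so RNA of the histamine enzyme was present in blood and its difference missed the threshold.

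**Figure D4:**
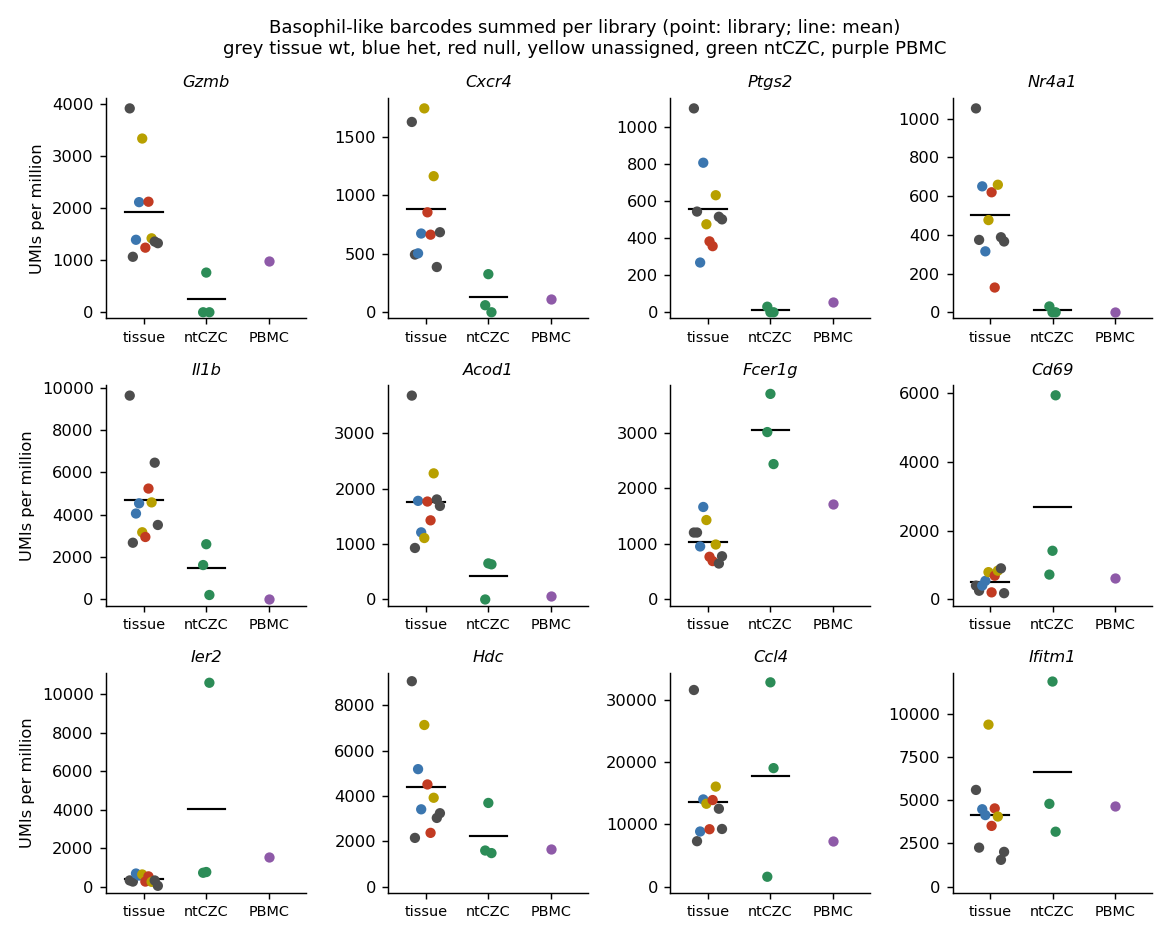
Levels of 12 genes in summed basophil-like barcodes, in CPM on linear axes, with 1 point for each tissue or unassigned library with at least 2 barcodes (10 libraries), ntCZC library (3) and the PBMC library, and a line at each mean. Gzmb, Cxcr4, Ptgs2 and Nr4a1 lie lower and Fcer1g higher in ntCZC than in the tissue libraries with a group.

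The PBMC library, which was not sorted for ZSG and came from a younger mouse, was in no test. Its 9 basophil-like barcodes held Cxcr4 at 115 CPM, Ptgs2 at 57.4 CPM and Nr4a1 at 0, below all 8 tissue libraries. Gzmb was at 976 CPM, just under the lowest tissue library, but all its UMIs came from 1 barcode. Fcer1g at 1722 CPM lay between the tissue and ntCZC ranges. Over the 22 basophil-like barcodes of blood, 9.09% held Gzmb and 18.2% held Cxcr4, against 49.1% and 59.5% of the 173 in tissue libraries with a group, although the blood barcodes had more UMIs (median 2617.5 against 1490). Thinned to 500 UMIs, the shares were 9.09% and 35.3% for Gzmb and 9.09% and 28.3% for Cxcr4. Gzmc was found in 0 of the blood barcodes.

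The same contrast in other leukocyte barcodes (those with a Ptprc UMI, not members) was set beside that of the basophil-like ones. Of the 57 genes, 50 had the same direction there. Of the genes described above, Gzmb and Nr4a1 went the other way, with log2 ratios of 2.25 and 1.17 in other leukocytes, and so did Cd69 (-0.80), Dusp1 (0.23) and Il1b (0.18). Cxcr4 was lower by a smaller amount (-0.27), and Ptgs2 and Fcer1g had ratios of -3.26 and 1.72. Mitochondrial UMIs made up 2.08 to 4.37% of the other barcodes in ntCZC and 9.02 to 15.6% in tissue. The difference between the contrasts was not tested.

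**Figure D5:**
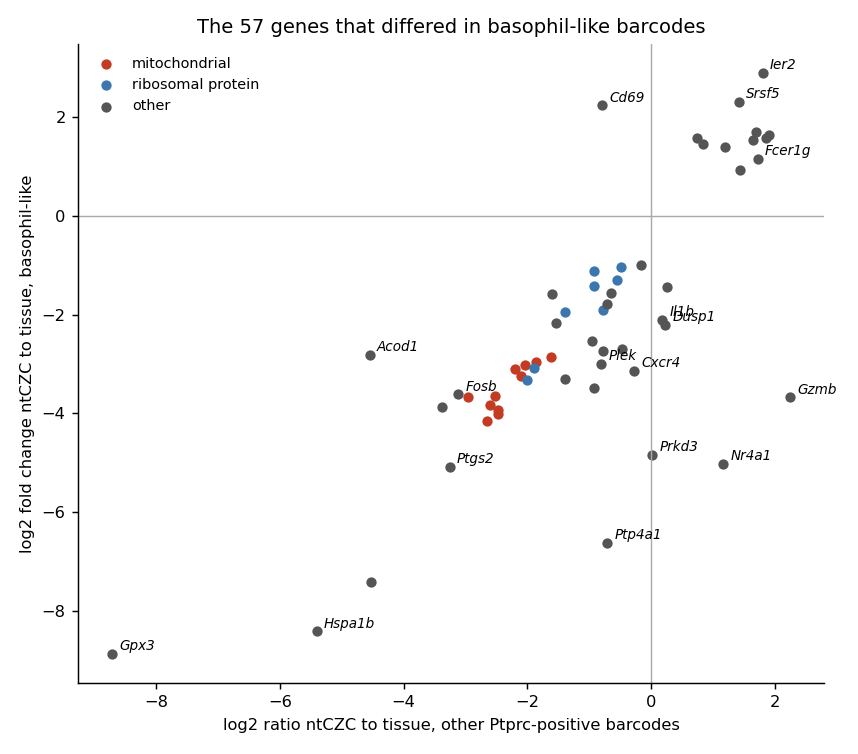
The 57 genes that passed between ntCZC and tissue in basophil-like barcodes, with their log2 fold change there (vertical axis) against the log2 ratio of mean CPM in other Ptprc-positive barcodes (horizontal axis). Of these, 50 lie in the quadrants of equal sign, and Gzmb (-3.68 and 2.25) and Nr4a1 (-5.02 and 1.17) lie farthest from them.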

How the data were processed

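Tissue, ntCZC and PBMC cells were profiled with 10x Chromium 3′ chemistry, and the authors deposited 1 filtered matrix of raw UMI counts per gene and barcode for each of 22 libraries, aligned to mm10. The matrix headers name Cell Ranger 3.0.2, the submitters' processing notes Cell Ranger 2.1.1 and Seurat. The hashtag assignments of barcodes to organs were not used here. The members, gene lists and tests were chosen with earlier results of these data known. Barcodes were kept at 200 or more genes and at most 25% mitochondrial UMIs. Doublets were scored with Scrublet (scanpy 1.11.5) and kept. Pooled levels are counts per 1000000 UMIs (CPM). Shares were compared over libraries by exact two-sided permutation tests (scipy 1.17.1). Exhaustive enumeration was used throughout, and p-values were Benjamini-Hochberg adjusted over 10 planned and, separately, 5 added comparisons. The 5 planned tests of genes within Mcpt8-positive and Tpsb2- or Cma1-positive barcodes required 10 barcodes per library, which too few libraries held, and were not run as planned. Sums over all basophil-like barcodes (at least 10 per library between genotypes, 2 between ntCZC and tissue) were used in their place, chosen after the counts were seen, and Mcpt8-positive barcodes at 2 per library were added as an alternative. They were tested with edgeR 4.0.16 (quasi-likelihood, TMM, labelled sex as covariate, R 4.3.3) at an adjusted p of 0.05 over all genes tested. DESeq2 1.42.0 was an alternative. The scripts were tested on simulated counts with 200 changed genes. Named genes were the rule and list members, up to 10 called genes each way for each test, and the 15 genes with the highest ratio to the other barcodes. Xist, the Y-linked genes and Lgals3 were named after their values were seen. Intervals and limits cover counting error only, and shallow barcodes limit what a 0 can show.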

Additional observations from a re-analysis of the deposited data

Results flagged for a closer look

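A sample was singled out where its gap to the nearest other library of its group was large against the range of the group, a test that flags about 5% of groups by chance where values are not tied. Among Nalcn-wt tissue libraries, tissue wt 5 had a share of Mcpt8-positive members of 0.348%, far above the other 4, and this rests on 1 of 287 passing barcodes. In ntCZC the flag is fixed by ties at 0, since it is raised whenever 1 library of 4 holds a member and the others none, and that chance rate does not apply. Among 4 Nalcn-het ntCZC libraries, ntCZC het 4 alone held members, at 0.692% of passing barcodes, with 0.346% Mcpt8-positive and 0.173% with Tpsb2 or Cma1. It also had the most passing barcodes of the 4 (578). Among 4 Nalcn-null ntCZC libraries, ntCZC null 2 alone held members, at 0.704%, all of them Mcpt8-positive (0.704%), and it had the most passing barcodes of those 4 (284). In the PBMC library, which no comparison used, 1.33% of passing barcodes were members.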

How the results depend on the processing

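Differences in share are in percentage points, and passing here means an unadjusted exact p of at most 0.05, since none of the 15 comparisons passed after adjustment. Of 281 recomputed share differences over 15 comparisons, 210 kept direction and side of the threshold, 36 no longer passed, 5 newly passed and 30 changed sign. For all members, Nalcn-null against Nalcn-wt gave 0.199 at up to 20% mitochondrial UMIs, which passed, and changed sign with 3 of 8 genes required (-0.0369) and with barcodes thinned to 1000 UMIs (-0.0151). Nalcn-het against Nalcn-wt no longer passed at 500 or more genes (0.232), with 3 of 8 genes (0.210), thinned (0.266), with Ptprc-positive barcodes as denominator and tissue wt 5 left out (0.329), without Scrublet doublets and tissue wt 5 (0.364) or with a replicate block (0.272). Both genotypes together no longer passed at 500 genes (0.121), with 3 of 8 genes (0.0863), per Ptprc-positive barcode (0.159), thinned (0.125) or with the block (0.231). For Mcpt8-positive members, Nalcn-null changed sign at 500 genes (-0.0472), with 3 of 8 genes (-0.0411), per Ptprc-positive barcode (-0.0132) and thinned (-0.0696). Here too tissue wt 5 had the highest Nalcn-wt share in each setting. Nalcn-het (0.268) and both together (0.177) passed at up to 20% mitochondrial UMIs, and both together also without Scrublet doublets and tissue wt 5 (0.206). Uterus against epididymis changed sign with 3 of 8 genes (0.00305) and per Ptprc-positive barcode (0.0240), and ntCZC against tissue did so per Ptprc-positive barcode (-0.0532 for Mcpt8-positive and -0.0912 for all members). For Tpsb2- or Cma1-positive barcodes, Nalcn-het no longer passed at 500 genes (0.00613), thinned (0.0147), without Scrublet doublets (0.00923) or with the block (0.0296), and changed sign per Ptprc-positive barcode (-0.00869, as both together did, -0.00869). Nalcn-null thinned was 0, and ntCZC against tissue changed sign at 500 genes (-0.00225), per Ptprc-positive barcode (-0.00483), thinned (-0.00326) and with the block (-0.0138).

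Leaving out 1 library at a time gave, for all members, 0.0888 to 0.213 (Nalcn-null), 0.252 to 0.320 (Nalcn-het), 0.186 to 0.258 (both), -0.133 to 0.00318 (uterus) and -0.130 to 0.0515 (ntCZC). For Mcpt8-positive members it gave -0.00908 to 0.114, 0.131 to 0.271, 0.0786 to 0.185, -0.114 to 0.0490 and -0.0555 to 0.0615 in that order, and for Tpsb2- or Cma1-positive ones -0.00583 to -0.00137, 0.0200 to 0.0353, 0.00357 to 0.0169, -0.0176 to -0.00961 and -0.00978 to 0.0113. With 2 libraries a group, fewer libraries also raise the smallest p that can be reached.

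The number of genes called was 3 for Nalcn-null against Nalcn-wt and became 10 with no filter on low counts, 33 without Scrublet doublets, 52 with at least 20 barcodes per library, 0 in Mcpt8-positive barcodes alone and 0 to 13 with 1 library left out (0 without tissue null 2, 13 without tissue wt 1). For Nalcn-het it was 0 and became 10, 87 and 60 in the first 3 of these settings. Without doublets and with at least 20 barcodes, tissue wt 2 was the only Nalcn-wt library, and with at least 20 tissue het 1 was also the only Nalcn-het library, so a lone library is assumed to vary like the other groups. All barcodes of the libraries left without doublets gave 28 (Nalcn-null) and 46 (Nalcn-het), and removing doublets with 4 Nalcn-wt libraries of at least 2 barcodes gave 3 and 1. Nalcn-het had 1 with DESeq2 and 0 to 28 with 1 library left out (28 without tissue wt 1). For ntCZC against tissue it was 57 and became 123 with no filter, 98 with DESeq2, 106 without the sex covariate and 33 to 71 with 1 library left out. With a replicate block it was 0 for ntCZC against tissue and 0 for Nalcn-het. Libraries with the same number had correlations of -0.362, -0.183, -0.194 and -0.0112 in their deviations from group means. These means came from as few as 2 libraries, so the correlations cannot show whether the numbers pair libraries. By the labels, ntCZC and tissue agree in age and sex for wt 1 and for null 2, while those of het 1 differ in age (610 and 551 days). No paired analysis was possible because Nalcn-null and Nalcn-wt shared fewer than 2 numbers among the libraries fitted. The cause of these changes was not tested. Of 572 recomputed values of single genes, 448 kept their call, 116 lost it, 8 gained it and 0 changed sign. All alternatives for all members and for the genes of basophil-like barcodes were chosen after the data were seen.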
